A study of Mus musculus with 69 samples.

Results

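The comparison described here is that of hearts 8 h after potassium cyanide (KCN) with hearts 8 h after saline, 8 of the 69 arrays of a study of mouse hearts after cyanide. It was chosen by the titles of the arrays. The 4 KCN hearts came from adult male CD-1 mice, an outbred strain, given KCN at 8.0 mg/kg under the skin, and the 4 saline hearts from adult male CD-1 mice given saline by the same route. The mice weighed 20 to 35 g, carried no engineered allele that the labels name, and received no other agent named there. The other injected groups, used here for the time course, were KCN and saline hearts at 1, 2, 4 and 24 h, each time with its own saline mice. Each injected group had 4 arrays, except saline at 2 h and both groups at 4 h, which had 3. The remaining 32 arrays were of hearts after inhaled hydrogen cyanide (HCN) or air at 1, 2, 4 and 24 h. They entered the filter and the pooled estimate of spread. RNA was read on Affymetrix 3' expression arrays, 1 array a heart, and the values are log2 signals of probe sets. All 45141 probe sets were considered, and 26773 were tested, namely those with a group mean over 3.23 (the midpoint of the group means) in 1 or more groups.

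Cyanide binds cytochrome c oxidase, the enzyme that passes electrons to oxygen at the end of the mitochondrial respiratory chain, and so stops oxidative synthesis of ATP while it is bound. The heart draws nearly all of its energy from this chain, largely by burning fatty acids, and has little reserve. Cells clear cyanide mainly by transferring sulfur to it, which the mitochondrial enzyme rhodanese (Tst) catalyses.

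The 8 arrays held heart RNA, but some also held RNA of other tissues. The 7 measured ventricular markers averaged a log2 signal between 12.81 and 12.94 in KCN hearts and between 12.81 and 12.997 in saline hearts. Pairwise correlations of the 8 arrays lay between 0.978 and 0.992. Both groups spread more than the other injected groups. For each array the standard deviation, over probe sets, of its deviations from the group mean was taken. It averaged 0.248 in KCN hearts and 0.262 in saline hearts at 8 h, against 0.193 to 0.240 elsewhere. This measure runs lower in groups of 3 arrays (saline at 2 h, both groups at 4 h). Saline replicates 1 and 2 deviated from their group opposite to replicates 3 and 4, with correlations of deviations between -0.61 and -0.55. Within these pairs the correlation was 0.08 (1 and 2) and 0.25 (3 and 4). Deviations from a group's own mean tend to correlate negatively by construction. Among the KCN hearts the correlations lay between -0.53 (replicates 1 and 4) and -0.02 (replicates 3 and 4). Scgb1a1, a secreted protein of airway epithelium, read 3.11, 10.87, 12.05 and 12.53 in KCN replicates 1 to 4, against 11.18, 11.43, 2.601 and 2.86 in saline replicates 1 to 4. Adipoq, the fat cell hormone adiponectin, read 8.60, 9.84, 9.52 and 11.08 in KCN hearts, against 10.40, 9.50, 4.81 and 5.16 in saline hearts. Airway RNA was thus near background in KCN replicate 1 and saline replicates 3 and 4, and fat RNA was low in saline replicates 3 and 4.

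Over the whole marker lists, the 7 measured airway and lung genes had a median change of 1.22, none called. Their summed levels were 20.8 to 61.6 in KCN hearts and 20.3 to 50.5 in saline hearts. For 1 of them both group means at 8 h lay below the background threshold of 3.23. The 5 measured adipocyte and brown fat genes had a median change of 1.02, none called. Their summed levels were 31.0 to 41.5 in KCN hearts and 22.9 to 37.9 in saline hearts, and 1 had both group means below that threshold. Without saline replicates 3 and 4 the airway median was -0.36 and the fat median 0.09. The part of this RNA in the results below was not tested beyond fits with the airway or the fat transcripts as a covariate, which called 78 and 66 probe sets in place of 90. In these bulk samples a smaller share of cells and less RNA per cell cannot be told apart. RNA quality, read as the log2 ratio of 3' to 5' actin control probe sets, averaged 0.426 ± 0.057 in KCN hearts and 0.454 ± 0.136 in saline hearts (SD, n = 4 each), with an exact permutation p of 0.714, two-sided, where the smallest possible is 0.0286.

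**Figure D1:**
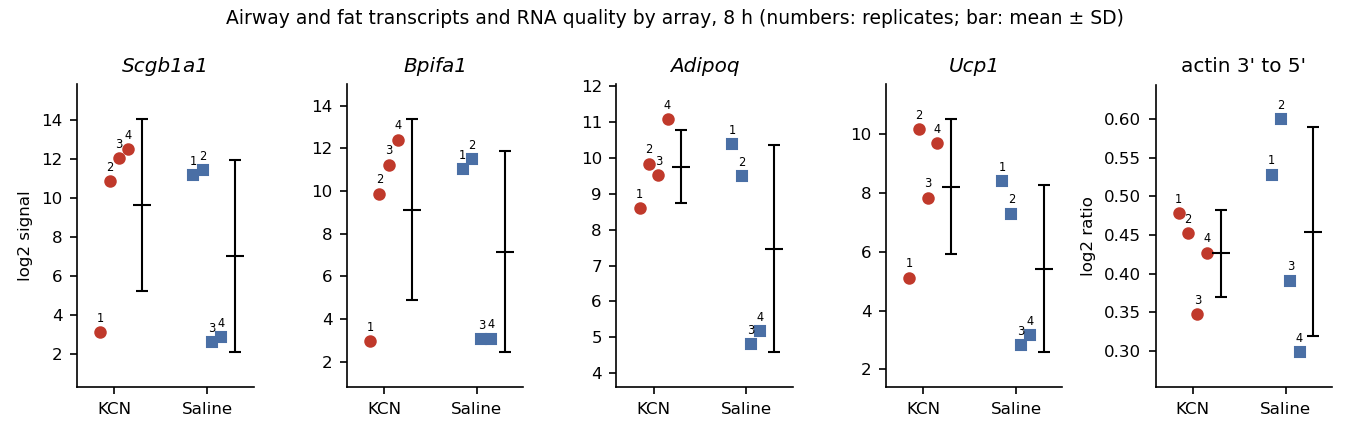
Airway transcripts (Scgb1a1, Bpifa1) and fat transcripts (Adipoq, Ucp1) as log2 signals, and the actin 3' to 5' log2 ratio, in each heart at 8 h. Points are single arrays numbered by replicate, and bars show the mean ± SD of 4 arrays. Saline replicates 3 and 4 lie below 6 in all 4 transcripts, and KCN replicate 1 lies below 4 in both airway transcripts.

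At 8 h after injection few transcripts separated KCN from saline hearts. Nr4a3, a nuclear receptor of the immediate early class, was 6.98-fold higher in KCN hearts, and Agt, the precursor of the angiotensin peptides, was 3.35-fold higher. The protease Htra4, the muscle protein Klhl40 and the membrane protein Tmem119 were also past 2-fold. Falls were smaller: Tmed7, a cargo receptor of the secretory pathway, was the only named gene to fall past 2-fold, and the fall with the lowest p was that of Ktn1, a kinesin anchor of the endoplasmic reticulum, at 0.706 of the saline level.

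At an adjusted p of 0.05 in limma, which pools the spread of all 18 groups, 90 probe sets changed, 0.336% of those tested. Of these 37 rose (0.138%) and 53 fell (0.198%), naming 31 genes higher and 44 lower. The balance of rises and falls was not stable: with each array centred on its median 22 of 75 calls were higher, at 1.5-fold or more 28 were higher and 20 lower, without saline replicate 3 there were 40 higher and 33 lower, and without both saline replicates 3 and 4 there were 438 higher and 243 lower. At an unadjusted p under 0.05 there were 3180 (11.9%), with 5.99% higher and 5.89% lower. Of the 90, 12 have no single gene symbol in the annotation. The 4 KCN arrays and the 4 saline arrays did not overlap for 65 of the 90, against 4.15% of all tested probe sets. The calls were picked from these same values, so this share describes them and is no separate evidence. The rises had a median of 0.73 and the falls a median of -0.50 (log2), against 0.01 for all tested probe sets.

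The count rested on single arrays and on the pooled spread. Without KCN replicate 2 it was 3 (Nr4a3, Maip1 and Ktn1), without saline replicate 1 it was 18 and without saline replicate 2 it was 37. Without KCN replicate 3 it was 223 and without KCN replicate 4 it was 202. KCN replicate 2 was the lowest KCN array in 42 of the 53 falls and the highest in 22 of the 37 rises. A fit of the injected groups alone called 16. On the 8 arrays by themselves limma called 0, and 1768 had an unadjusted p below 0.05. Except for Nr4a3, Maip1 and Ktn1, every gene written below as having risen or fallen therefore loses its call without KCN replicate 2. The gene calls kept their direction under each alternative and leave-out tried, but these share most of their data with the main fit. The SEs given below also use the pooled spread, and may be too small for genes that spread more at 8 h.

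**Figure D2:**
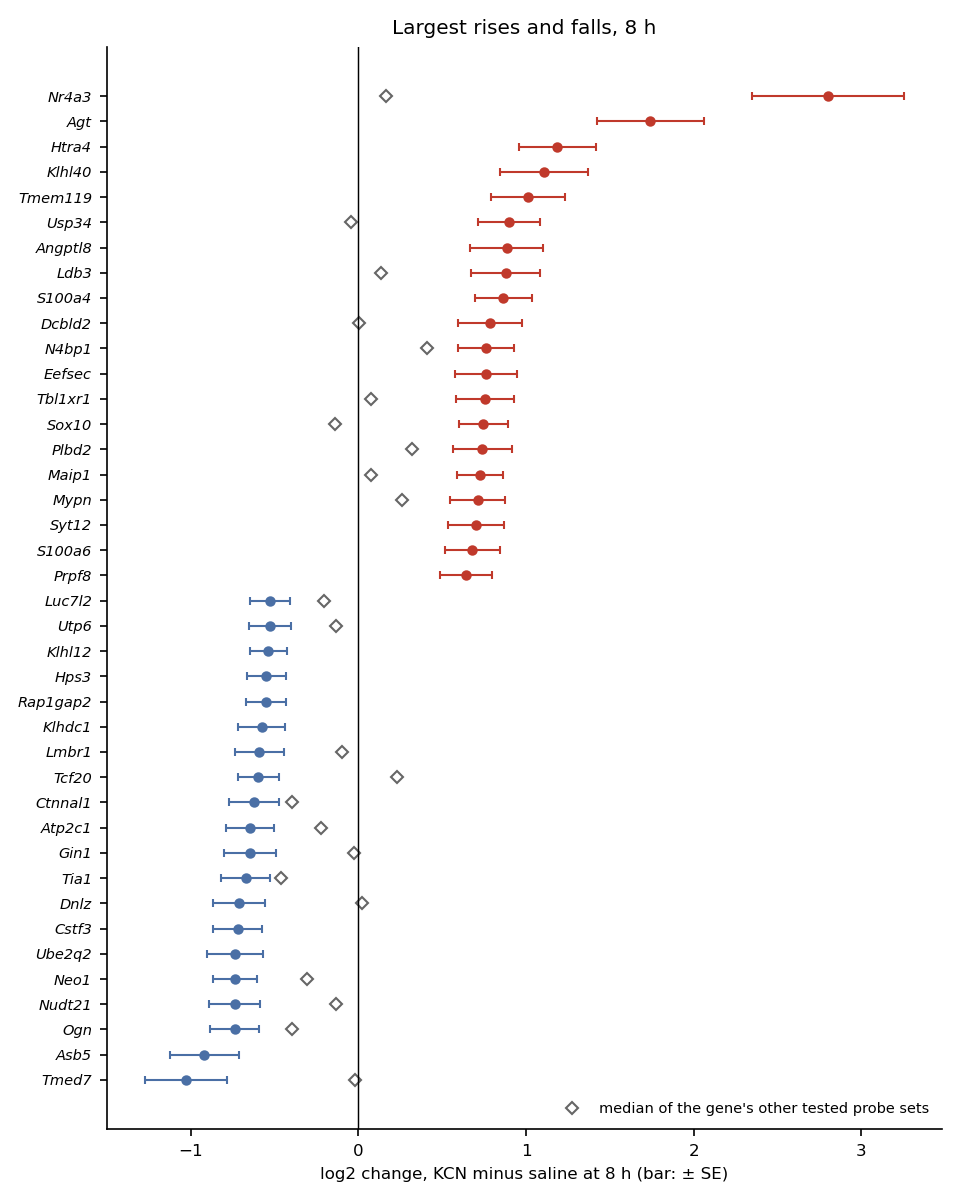
Log2 change (KCN minus saline at 8 h, ± SE) of the 20 genes with the largest rises and the 20 with the largest falls among called probe sets. Diamonds mark the median change of a gene's other tested probe sets where it has any. Rises reach 2.80 (Nr4a3) and falls -1.03 (Tmed7), and each diamond lies closer to 0 than the called probe set.

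Nr4a3 belongs to the NR4A family of orphan nuclear receptors, which act without a known ligand and are switched on by transcription within minutes to hours of a stimulus. Its promoter and that of Agt are shown because these genes rose most, and that of S100a4 because this gene and its neighbour S100a6 both rose. The sequences are from RefSeq on GRCm38.p6, from 250 bases before to 50 bases after the annotated start, on the strand of the gene, and all 4 genes had an entry. Capitals mark the cyclic AMP response half-site TGACG, or its reverse complement, in Nr4a3, and the TATA box letters TATAAA in Agt and S100a4.
Nr4a3 (chr4:48045055-48045354, + strand): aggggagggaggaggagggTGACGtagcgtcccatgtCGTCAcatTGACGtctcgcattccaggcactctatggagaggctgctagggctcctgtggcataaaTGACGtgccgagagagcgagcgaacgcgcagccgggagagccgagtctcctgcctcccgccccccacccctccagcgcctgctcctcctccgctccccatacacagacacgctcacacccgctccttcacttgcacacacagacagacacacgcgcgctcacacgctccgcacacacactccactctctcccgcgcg
Agt (chr8:124569657-124569956, - strand): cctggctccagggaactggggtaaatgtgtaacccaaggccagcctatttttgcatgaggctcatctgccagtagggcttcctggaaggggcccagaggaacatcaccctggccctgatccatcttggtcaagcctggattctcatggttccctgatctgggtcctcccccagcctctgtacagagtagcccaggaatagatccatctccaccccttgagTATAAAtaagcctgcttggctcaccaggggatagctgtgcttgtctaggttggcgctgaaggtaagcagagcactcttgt
S100a4 (chr3:90603520-90603819, + strand): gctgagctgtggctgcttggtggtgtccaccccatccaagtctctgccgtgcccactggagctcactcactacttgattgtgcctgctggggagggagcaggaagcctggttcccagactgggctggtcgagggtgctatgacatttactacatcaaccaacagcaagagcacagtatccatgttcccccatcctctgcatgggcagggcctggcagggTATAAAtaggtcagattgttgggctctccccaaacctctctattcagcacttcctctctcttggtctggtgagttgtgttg

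The Nr4a3 window held TGACG at 4 places, 231, 213, 205 and 147 bases before the start, none overlapping another. Searched on both strands, at least 1 match was in 20.8% and at least 4 in 0.231% of 32851 mouse promoters of this length. TATAAA began 30 bases before the start of Agt and 31 bases before that of S100a4, and was in 13.6% of the promoters on either strand. The S100a6 window held no TATAAA and has its start 9124 bases from that of S100a4. The E-box letters CACGTG, in 7.15% of the promoters, were in the S100a6 window and not in the other 3. A match describes these letters and is no measured binding site.

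The log2 signal of Nr4a3 was 7.11, 8.75, 6.20 and 8.09 in KCN hearts, against 3.76, 5.63, 4.65 and 4.89 in saline hearts. Every KCN heart lay above every saline heart, and KCN replicate 3 and saline replicate 2 came closest. The change was 2.80 ± 0.45 (SE), with an adjusted p of 0.00101 (limma), and stayed between 2.40 and 3.25 with each array left out in turn. The other 2 tested probe sets of Nr4a3 changed by 0.07 and 0.25 and were not called. They averaged 2.80 and 3.48 in KCN hearts, against 2.72 and 3.22 in saline hearts. These levels lie near or below the background threshold of 3.23, so these probe sets say little about the change.

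Agt read 6.81, 6.88, 6.34 and 6.81 in KCN hearts, against 4.23, 5.504, 5.40 and 4.74 in saline hearts. The groups did not overlap, and the KCN hearts lay closer together than the saline hearts. The change was 1.74 ± 0.32 with an adjusted p of 0.00555. The adjusted p was 0.0662 without KCN replicate 2 and 0.0537 without saline replicate 1. The other 5 measured genes of the renin-angiotensin system did not pass: Ace, which converts angiotensin I, changed by 0.41 ± 0.18 and Enpep, which degrades angiotensin II, by -0.40 ± 0.17, and the receptor Agtr1a by 0.10. The median of the 6 was 0.15, against 0.01 for all 12436 genes taken by 1 probe set each, of which 0.45% were called, 0.153% higher and 0.298% lower.

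Htra4, a secreted serine protease of the HtrA family, read 5.52, 6.31, 5.80 and 5.80 in KCN hearts, against 4.62, 4.48, 4.72 and 4.87 in saline hearts. All KCN hearts were higher, and the change was 1.19 ± 0.23 (adjusted p = 0.0116, limma; 0.128 without KCN replicate 2). S100a4 and S100a6 encode small calcium-binding proteins. S100a4 read 7.16, 7.61, 7.16 and 8.03 in KCN hearts, against 6.85, 6.41, 6.499 and 6.75 in saline hearts, a change of 0.86 ± 0.17. S100a6 read 9.34, 9.65, 9.30 and 10.003 in KCN hearts, against 8.88, 8.74, 8.93 and 9.02 in saline hearts, a change of 0.68 ± 0.16. KCN replicate 4 was the highest array for both, and neither pair of groups overlapped.

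**Figure D3:**
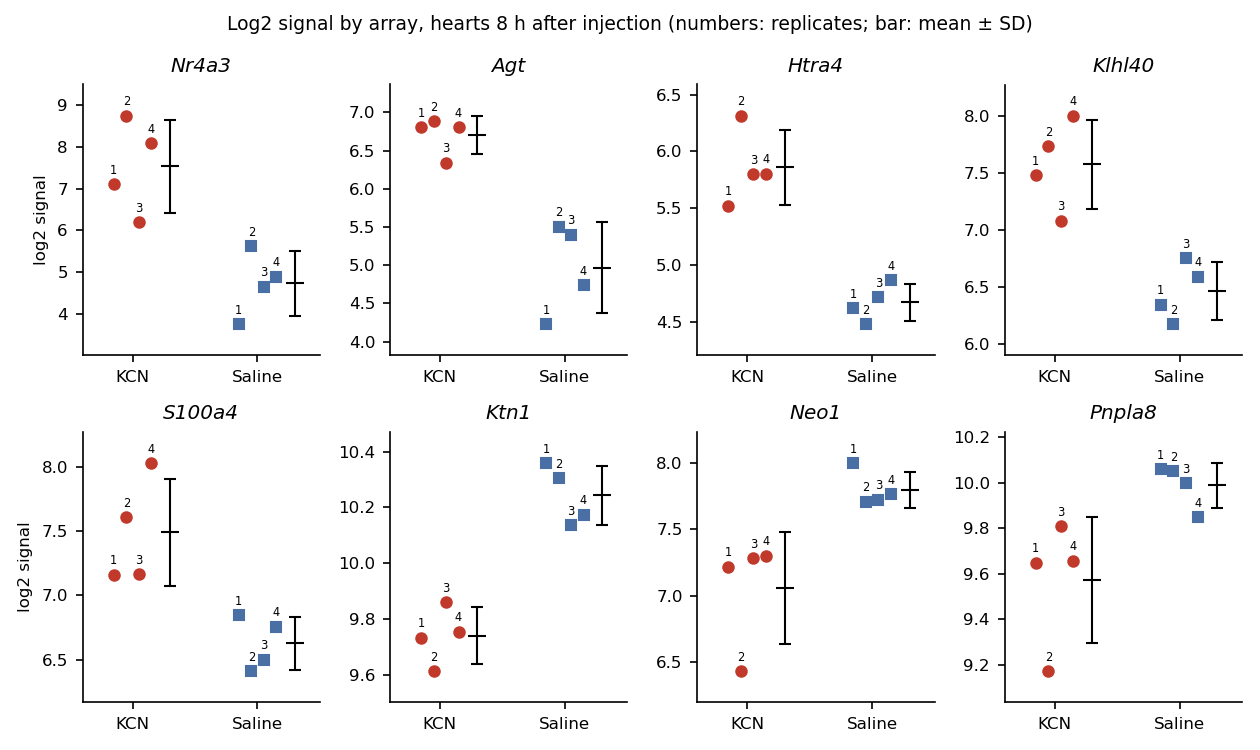
Log2 signal of 8 called genes in each heart at 8 h, KCN on the left of each panel. Points are single arrays numbered by replicate, and bars show the mean ± SD of 4 arrays. The groups do not overlap in any panel, and KCN replicate 2 is the lowest array for Ktn1, Neo1 and Pnpla8.

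Several rises were in genes of the contractile apparatus, grouped here after their values were seen and not tested as a set. Of the 7 measured ventricular markers 5 were lower and 2 higher, with a median of -0.04 and 1 called (Pln, lower). Of all genes 48.5% were lower. In the direction opposite to these rises, Dsp of the intercalated disc changed by -0.34 (adjusted p = 0.0442, limma). Klhl40, which stabilises thin filament proteins in muscle, read 7.48, 7.74, 7.09 and 8.01 in KCN hearts, against 6.35, 6.18, 6.76 and 6.59 in saline hearts, a change of 1.11 ± 0.26. Nrap, which anchors actin at the intercalated disc, read 9.86, 9.91, 9.99 and 9.75 in KCN hearts, against 9.28, 9.31, 9.24 and 9.27 in saline hearts, a change of 0.60 ± 0.15. Neither gene's groups overlapped, and the 4 saline values of Nrap lay close together. Nrap lies outside the rule for named genes, as do the other genes singled out here that are not among the 20 largest rises, the 20 largest falls or the members of the lists.

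Mypn and Ldb3, both of the Z-disc, stood above saline replicates 1 and 2 more than above 3 and 4. Ldb3 read 9.36, 9.63, 9.23 and 9.42 in KCN hearts, against 7.52, 7.98, 9.30 and 9.33 in saline hearts. Only saline replicates 1 and 2 lay apart from the KCN hearts, and the groups overlapped. Airway RNA was high in these saline replicates and also in KCN replicates 2 to 4, and near background in KCN replicate 1. The change of 0.88 ± 0.21 was 0.54 without saline replicate 1 and 0.69 without saline replicate 2, no longer passing in either. Its SD was 0.92 in saline hearts at 8 h, against 0.02 to 0.22 in saline hearts at the other times. The SE given pools all groups. Of Ldb3, 2 brighter probe sets changed by 0.14 and 0.13 and were not called. Mypn read 6.98, 7.19, 6.90 and 6.87 in KCN hearts, against 5.79, 6.08, 6.70 and 6.51 in saline hearts, a change of 0.71 ± 0.17. Its groups did not overlap, but saline replicates 3 and 4 lay nearer to the KCN hearts than replicates 1 and 2 did. The part of other tissue in these 2 results was not tested.

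Maip1, a protein of the mitochondrial matrix that works with the m-AAA protease, passed without each of the 8 arrays. It read 4.30, 3.76, 3.84 and 3.64 in KCN hearts, against 3.23, 2.92, 3.04 and 3.44 in saline hearts, a change of 0.73 ± 0.14 (adjusted p = 0.00707, limma). The groups did not overlap, but the saline mean of 3.16 lay below the background threshold of 3.23, against 3.89 in KCN hearts, and its other probe set changed by 0.08. Tmem119 changed by 1.01 ± 0.22, Usp34, a deubiquitinase, by 0.90 ± 0.19, and Angptl8, a secreted regulator of lipoprotein lipase, by 0.88 ± 0.22. The level of Angptl8 averaged 3.83 in KCN hearts and 2.95 in saline hearts at 8 h, and of the injected groups only the KCN hearts at 8 h lay above the background threshold of 3.23, so the size of its change is uncertain. Sox10, a transcription factor of Schwann cells, rose by 0.75 ± 0.14 in 1 probe set, while its 2 others changed by -0.21 and -0.07. The called probe set averaged 3.88 in KCN hearts and 3.13 in saline hearts, the second below the background threshold. The other rises among the 20 largest lay between 0.64 and 0.78. Tbl1xr1, a subunit of a transcriptional corepressor complex, read 6.05, 6.44, 6.06 and 5.87 in KCN hearts, against 4.67, 5.43, 5.58 and 5.73 in saline hearts. Eefsec, the elongation factor for selenocysteine, read 4.72, 4.53, 4.11 and 4.29 in KCN hearts, against 3.66, 3.56, 3.75 and 3.65 in saline hearts. Neither overlapped, and saline replicate 1 was the lowest heart for Tbl1xr1. N4bp1 changed by 0.76 ± 0.17 with overlapping groups. Of the 3 measured Schwann cell genes none was called by its brightest probe set, with a median of 0.02.

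The fall with the lowest p was that of Ktn1, which read 9.73, 9.61, 9.86 and 9.76 in KCN hearts, against 10.36, 10.30, 10.14 and 10.17 in saline hearts. The groups were separate, and the change of -0.50 ± 0.07 had an adjusted p of 6.48e-06 (limma). The change lay between -0.54 and -0.46 with each array left out. Pnpla8, a phospholipase of mitochondria and peroxisomes, read 9.65, 9.17, 9.81 and 9.66 in KCN hearts, against 10.06, 10.05, 9.997 and 9.85 in saline hearts, a change of -0.42 ± 0.07, and -0.28 without KCN replicate 2 (adjusted p = 0.106, limma). Neo1, a receptor for netrins and repulsive guidance molecules, read 7.22, 6.43, 7.28 and 7.30 in KCN hearts, against 8.00, 7.71, 7.72 and 7.76 in saline hearts, a change of -0.74 ± 0.13. KCN replicate 2 was far below the other KCN hearts for both, and the change of Neo1 without it was -0.53.

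Asb5, an adaptor of ubiquitin ligases found in muscle, read 7.66, 6.62, 7.94 and 7.64 in KCN hearts, against 8.72, 8.35, 8.39 and 8.07 in saline hearts, a change of -0.92 ± 0.21. The groups did not overlap, and without KCN replicate 2 the change was -0.64. Ogn, a small proteoglycan of the matrix, read 8.45, 8.95, 9.77 and 10.04 in KCN hearts, against 10.22, 9.88, 10.12 and 9.95 in saline hearts, a change of -0.74 ± 0.15. KCN replicates 1 and 2 carried this fall, KCN replicate 4 lay among the saline hearts, and without KCN replicate 1 the change was -0.45. The SD of Ogn was 0.73 in KCN hearts at 8 h, against 0.03 to 0.10 in KCN hearts at the other times. The SE given pools all groups. Tmed7 read 4.35, 3.72, 4.63 and 4.84 in KCN hearts, against 4.62, 5.09, 6.01 and 5.95 in saline hearts, a change of -1.03 ± 0.25. Its groups overlapped, and its other 2 probe sets changed by -0.27 and 0.23. Tmed2, a partner in the same family of cargo receptors, fell by 0.26 ± 0.06.

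Among the falls were genes for the processing of RNA, again grouped after their values were seen and not tested as a set. Cstf3, a subunit of the cleavage stimulation factor that acts at the 3' end of messenger RNA, read 5.67, 5.63, 5.75 and 5.58 in KCN hearts, against 6.59, 6.52, 6.20 and 6.20 in saline hearts, a change of -0.72 ± 0.15. Its groups did not overlap. Nudt21, of the same cleavage machinery, changed by -0.74 ± 0.15, and the RNA-binding protein Tia1 by -0.67 ± 0.15. Srsf6, a splicing factor, fell in 3 of its 4 tested probe sets, by 0.67, 0.60 and 0.43. Luc7l2 of the U1 particle changed by -0.53 ± 0.12, Snu13 of the U4/U6 particle by -0.30 ± 0.07 and Alkbh5, which removes methyl groups from adenosine in RNA, by -0.35 ± 0.08. In the other direction Prpf8, the core protein of the spliceosome, rose by 0.64 ± 0.16.

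Genes of energy metabolism fell by small amounts where they fell at all. Acadm, which starts the oxidation of medium-chain fatty acids, read 12.22, 12.31, 12.44 and 12.35 in KCN hearts, against 12.63, 12.61, 12.46 and 12.40 in saline hearts, a change of -0.20 ± 0.04. Pdha1, a subunit of pyruvate dehydrogenase, read 11.92 to 12.01 in KCN hearts, against 12.07 to 12.26 in saline hearts, a change of -0.18 ± 0.04. The groups of Pdha1 were separate, and those of Acadm overlapped. Atp5g3, which encodes the ring subunit of ATP synthase, changed by -0.19 ± 0.04, and Slc25a3, which carries phosphate into mitochondria, by -0.19 ± 0.04. Lpl, which frees fatty acids from lipoproteins, changed by -0.17 ± 0.04, and Pln, the inhibitor of the calcium pump of the sarcoplasmic reticulum, by -0.19 ± 0.04. These 6 levels are all above 11, where the median SE of a gene was 0.065, against 0.154 at levels up to 5.

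For the complex that cyanide binds, 0 of 22 measured genes of cytochrome c oxidase and its assembly were called by limma. Their median was -0.03, with 6 lower and 0 higher at an unadjusted p under 0.05, against 6.42% lower and 5.93% higher of all genes. Cox6a2, the heart and muscle form of subunit 6a, read 12.55, 12.33, 12.53 and 12.43 in KCN hearts, against 12.75, 12.65, 12.59 and 12.57 in saline hearts, a change of -0.18 ± 0.06 (adjusted p = 0.146). Cox4i1, the main form of subunit 4, changed by -0.01 ± 0.03, and Cox17, which delivers copper, by 0.20. The median of the list was -0.003 without KCN replicate 2 and -0.06 without KCN replicate 1.

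Of 58 measured genes of complexes I, II and III and ATP synthase, 41 were lower and 17 higher, 1 was called (Atp5g3, lower), and the median was -0.04. Of all genes 48.5% were lower. At an unadjusted p under 0.05 there were 18 lower and 2 higher of the 58, against 6.42% lower and 5.93% higher of all genes. Ndufa1 and Ndufa9 of complex I changed by -0.17 ± 0.04 and -0.20 ± 0.06, with adjusted p of 0.0691 and 0.0835 in limma. The median was -0.08 without saline replicates 1 and 2 and -0.01 without saline replicates 3 and 4. Of 20 enzymes of the citric acid cycle 1 was called (Pdha1, lower), and their median was -0.04. At an unadjusted p under 0.05, 5 of these enzymes were lower and 0 higher. In fatty acid oxidation 2 of 25 genes were called (Acadm and Lpl, both lower), with a median of -0.06. At an unadjusted p under 0.05, 4 of these genes were lower and 0 higher. The 71 mitochondrial ribosomal proteins had a median of 0.00 and none called, and the 16 glycolysis enzymes 0.06 and none called. Lower values were common at high signal: of the genes with a level above 11, 59.2% were lower in KCN hearts, against 41.8% of the genes at or below 5.

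**Figure D4:**
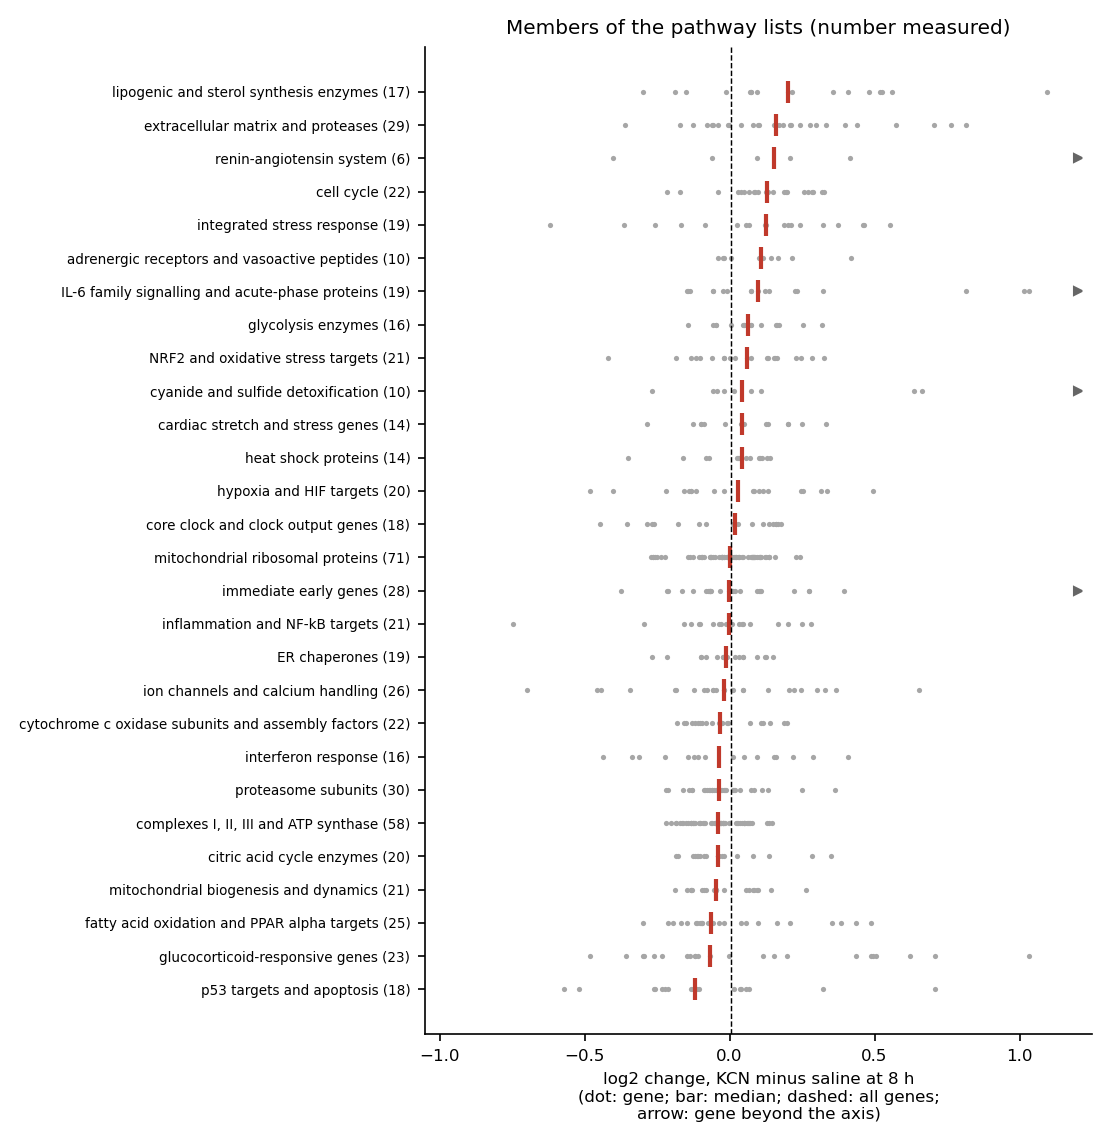
Log2 change (KCN minus saline at 8 h) of each measured member of the 28 pathway lists, with the list median as a bar and the median of all genes as a dashed line. Arrows stand for Agt, Hp, Cdo1 and Nr4a3, which lie beyond the axis. Lists run from the highest median at the top to the lowest at the bottom, and numbers in brackets count measured members. List medians lie between -0.12 and 0.20.

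Enzymes that clear cyanide and sulfide did not pass. Tst, rhodanese, read 6.92, 7.28, 7.14 and 7.82 in KCN hearts, against 7.47, 6.98, 6.13 and 6.02 in saline hearts, a change of 0.64 ± 0.25 (adjusted p = 0.273). Cdo1, which oxidises cysteine, read 6.12, 7.70, 7.18 and 8.67 in KCN hearts, against 8.03, 7.33, 3.74 and 3.73 in saline hearts, a change of 1.71. Saline replicates 3 and 4, which were low in fat RNA, were the lowest hearts for both genes, and its part in the values was not tested. Mpst, another sulfur transferase, changed by 0.07. The 10 measured genes of the list had a median of 0.04. At an unadjusted p under 0.05, 3 of them were higher and 0 lower, against 5.93% higher and 6.42% lower of all genes.

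Of 28 measured immediate early genes only Nr4a3 was called, and the median was 0.00, while the same list had a median of 1.00 at 1 h. Fos changed by -0.07 ± 0.60, Egr1 by 0.27 ± 0.41 and Atf3 by -0.38 ± 0.41. The relatives Nr4a1 and Nr4a2 changed by 0.27 and 0.00, but Nr4a2 averaged 2.94 in both groups, below the background threshold of 3.23. Both group means lay below it for 6 of the 28 immediate early genes. The same held for 7 of the 21 inflammation and NF-kB targets and 2 of the 20 hypoxia and HIF targets given next. None of 23 glucocorticoid-responsive genes (median -0.07), 20 hypoxia and HIF targets (0.03), 19 integrated stress response genes (0.13), 19 chaperones of the endoplasmic reticulum (-0.01), 14 heat shock proteins (0.04) or 21 inflammation and NF-kB targets (0.00) was called. At an unadjusted p under 0.05, 4 of the 19 integrated stress response genes were higher and 2 lower, and 3 of the 23 glucocorticoid-responsive genes were higher and 1 lower, against 5.93% higher and 6.42% lower of all genes. Hp, the acute-phase protein haptoglobin, changed by 2.40 ± 0.77 (adjusted p = 0.165), with 7.27, 9.26, 8.41 and 9.69 in KCN hearts, against 8.52, 8.13, 4.35 and 4.03 in saline hearts. Saline replicates 1 and 2 lay among the KCN hearts. Saline replicates 3 and 4, which were low in fat RNA, were the lowest hearts for Hp, and the part of fat RNA in its values was not tested. Lcn2, lipocalin 2, changed by 1.03 ± 0.32 (adjusted p = 0.152) with no overlap.

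Across the time course, 8 h had the fewest calls of the injected times in the main fit. Its count of 90 was 3 to 223 with 1 array left out. It was 681 without both saline replicates 3 and 4, so its rank is not fixed. At the times 1, 2, 4 and 24 h, KCN and saline hearts differed in 1094 (4.09%), 1765 (6.59%), 605 (2.26%) and 3191 (11.9%) probe sets. The airway and fat marker lists also had medians above 0 at those times. The airway list had medians of 3.65, 1.78, 2.81 and 1.77 there, against 1.22 at 8 h, and the fat list 0.79, 1.08, 0.66 and 1.41, against 1.02 at 8 h. Scgb1a1 averaged 11.41 in KCN hearts and 2.91 in saline hearts at 1 h (adjusted p = 0.0313, limma), while Adipoq changed by 2.15 to 2.46 over the 5 times and was called at none. The part of this RNA in the counts at each time, and in the differences between times, was not tested. Of the 90 calls at 8 h, 9 (10% of them) were also called in the same direction at 1 h and 20 (22.2%) at 24 h, with 6 and 5 at the times between. Those 20 were 0.627% of the calls at 24 h, and the 9 were 0.823% of those at 1 h. A call in the opposite direction was found for 4 of them at 4 h, and for 1 each at 2 and 24 h. Tested as a difference, the change at 8 h departed from that at 1 h in 236 probe sets (0.881%; 0.545% above, 0.336% below), 15 of them among the 90. It departed from that at 4 h in 234 (0.874%; 0.444% above, 0.43% below), 19 among the 90. Against 24 h there were 252 (0.941%; 0.627% above, 0.314% below), 13 among the 90.

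Nr4a3 was called at 1, 2, 4 and 8 h, with changes of 2.56, 3.25, 3.15 and 2.80, and not at 24 h, where it changed by 0.28. Its level differed by time in both groups: the means were 9.88, 10.03, 9.80, 7.53 and 4.598 in KCN hearts, against 7.32, 6.78, 6.65, 4.73 and 4.32 in saline hearts at 1, 2, 4, 8 and 24 h. The change at 8 h exceeded that at 24 h by 2.52 (adjusted p = 0.0364, limma), passing in 10 of 16 leave-outs. Agt had changes of 1.29, 1.43, 1.34, 1.74 and 0.53 at 1, 2, 4, 8 and 24 h, and its change at 8 h minus that at 24 h, 1.22, did not pass (adjusted p = 0.185, limma). Over the 10 means of the injected groups, which share arrays with the comparison itself, the called genes most like Nr4a3 were Agt (Pearson r = 0.761), Tmem119 (0.701), Klhl40 (0.679), Tbl1xr1 (0.668) and Mypn (0.589).

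Other genes were called at other sets of times. Htra4 had changes of 0.14, -0.23, 1.19, 1.19 and 0.03 at 1, 2, 4, 8 and 24 h, and was called at 4 and 8 h. S100a4 was called at 1, 4, 8 and 24 h, with changes of 0.92, 0.87, 0.86 and 0.65, and changed by -0.12 at 2 h. Nrap was called at 8 h and 24 h, with changes of 0.60 and 0.63. Ktn1 was called at 8 h, and its change was lower there than at 1, 4 and 24 h by 0.40, 0.45 and 0.35, each difference passing (adjusted p = 0.0198, 0.0141 and 0.0462, limma). Atf3, a stress transcription factor, had a change at 8 h below that at 1 h by 3.68. Tmed7 had changes of -2.04, 0.00, 1.24, -1.03 and -2.63 at 1, 2, 4, 8 and 24 h, called in both directions. Its means were 4.76, 4.47, 5.54, 4.39 and 4.72 in KCN hearts, against 6.80, 4.47, 4.30, 5.42 and 7.35 in saline hearts. The saline hearts thus differed more between times than the KCN hearts, and the cause was not tested.

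**Figure D5:**
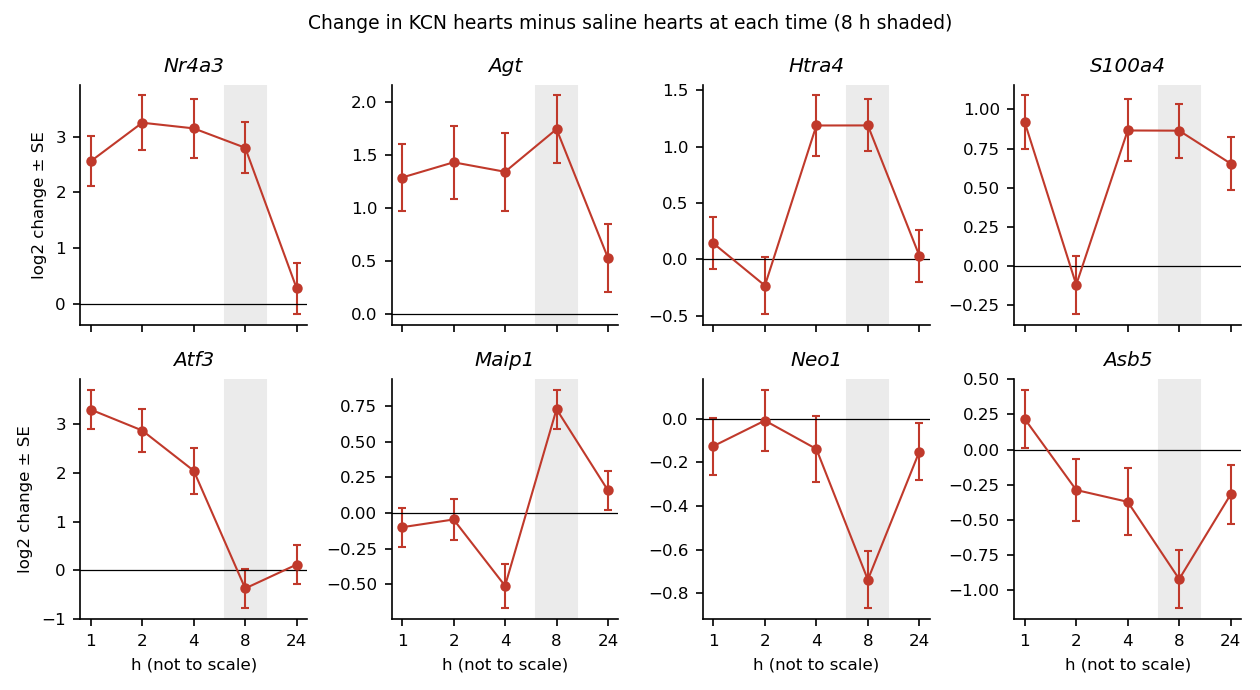
Log2 change (KCN minus saline, ± SE) of 8 genes at 1, 2, 4, 8 and 24 h after injection, with 8 h shaded. Each time has its own saline group, and times are spaced evenly. Nr4a3 stays above 2 up to 8 h and is 0.28 at 24 h, while Maip1, Neo1 and Asb5 are farthest from 0 at 8 h.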

How the data were processed

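Total RNA from 69 mouse hearts was hybridised to Affymetrix arrays, and the authors deposited 1 table of log2 signals per probe set, with values between 1.83 and 13.94. MAS5 is named per the submitters' processing notes. Normalization is not given in the sources used here, and no batch is named in them.

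From the deposited values, limma 3.58.1 in R 4.3.3 fitted 18 group means (51 residual degrees of freedom) with an intensity trend. Contrasts were two-sided and Benjamini-Hochberg adjusted over 26773 probe sets. The platform annotation gives 1 symbol to 28898 probe sets, several to 551 and none to 15692. Genes were named when they were, among called probe sets of 1 symbol with all 4 KCN arrays on 1 side of the saline mean, in the top 20 in either direction, were 1 of 4 list members with the lowest p, or were preset; others were chosen after their values were seen. Lists (28 of pathways, 15 of cell types) take the brightest probe set of a gene. Comparison, members and lists were chosen with earlier results of these data known. The procedure was tested on simulated data. Replicates were separate mice, per the labels. Alternatives were other normalizations, filters, variance models, sample sets and covariates, and leaving out arrays.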

Additional observations from a re-analysis of the deposited data

Results flagged for a closer look

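Of 124 groups of 4 arrays checked, 3 held an array far from the others, where chance alone gives about 1 in 20. Agt in KCN replicate 3 read 6.34, below the other KCN hearts at 6.81 to 6.88. Neo1 in KCN replicate 2 read 6.43, below the others at 7.22 to 7.30. Ube2q2, a ubiquitin-conjugating enzyme, read 7.17 in saline replicate 4, below the others at 7.43 to 7.46.

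Of 183 tests of a difference between times in the named genes, 23 passed (limma, adjusted over all probe sets). Values are the change at 8 h minus the change at the other time, on the log2 scale. Against 1 h the change at 8 h was higher for Ldb3 (1.10), Dcbld2 (1.09), Maip1 (0.83), Mypn (0.89) and Prpf8 (0.88). It was lower than at 1 h for Asb5 (-1.14), Gin1 (-0.89), Tcf20 (-0.72), Atf3 (-3.68) and Egr1 (-2.19). Against 4 h it was higher for Usp34 (1.27), N4bp1 (1.35), Maip1 (1.24) and Mypn (0.97). It was lower than at 4 h for Tmed7 (-2.27), Ube2q2 (-0.98), Atp2c1 (-0.99) and Atf3 (-2.42). Against 24 h it was higher for Nr4a3 (2.52), Usp34 (1.39), Dcbld2 (1.02) and Tmed7 (1.60), and lower for Klhl12 (-0.66). With each array of the groups compared left out in turn, the differences that passed every time were those of Atf3 against 1 h, of N4bp1, Maip1 and Tmed7 against 4 h, and of Usp34 against 24 h. Egr1 passed in 4 of 16 leave-outs, and Ldb3 and Dcbld2 (against 24 h) in 3 of 16. At 1, 2, 4, 8 and 24 h Usp34 averaged 5.92, 5.88, 5.76, 6.36 and 5.95 in KCN hearts. In saline hearts it averaged 5.98, 5.08, 6.14, 5.46 and 6.44. Ldb3 averaged 8.74, 8.86, 9.01, 9.41 and 9.07 in KCN hearts, against 8.96, 7.88, 9.29, 8.53 and 9.14 in saline hearts. For both genes the saline means differed more between times than the KCN means, and the cause was not tested.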

How the results depend on the processing

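The count of 90 called probe sets in KCN against saline at 8 h was 99 after quantile normalization, 75 after median centring (22 higher, 29.3%, against 41.1%), 121 with a stricter filter, 60 without the intensity trend, 126 with the actin ratio as a covariate, and, in alternatives added after the data were seen, 78 and 66 with the airway or the fat transcripts as a covariate. It was 50 with no filter, 48 at 1.5-fold or more, 16 with the injection arm only, 1 with array weights (Ktn1), 0 with only the groups compared (limma, 1768 at an unadjusted p under 0.05), 187 without both saline arrays 1 and 2 and 681 without both saline arrays 3 and 4 (64.3% higher), the last 2 also chosen after the data were seen. Leaving out 1 array gave 3 to 223. The replicate numbers share only a number (deviations of same-numbered arrays correlated at -0.14, 0.17, 0.14 and -0.11), and with them as a replicate block the count was 65, while 3 of 8 arrays correlated best with their own number.

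The 236 differences from 1 h were 147 with no filter, 100 with the injection arm only, 28 with only the groups compared, 388 without both saline arrays 1 and 2 and 115 to 329 with 1 array left out; after median centring 51.6% were higher, against 61.9%. The 234 differences from 4 h were 153 with no filter, 360 with a stricter filter, 119 with array weights, 128 with the injection arm only, 4 with only the groups compared, 517 with the actin ratio, 441 without both saline arrays 1 and 2 and 87 to 496 with 1 array left out. The 252 differences from 24 h were 163 with no filter, 429 with array weights, 150 with the injection arm only, 1 with only the groups compared, 426 with the actin ratio, 24 without both saline arrays 1 and 2, 1162 without both saline arrays 3 and 4 and 112 to 445 with 1 array left out. With the replicate block these counts were 224, 228 and 258. The actin ratio difference of -0.0279 ran from -0.0801 to 0.0207 with 1 array left out, turning round without saline replicate 2 (0.0207). The cause of these moves was not tested. All 78 called probe sets of named genes kept their direction in every setting run, and 3 (Nr4a3, Maip1 and Ktn1) passed without each of the 8 arrays in turn. The settings share most of their data, so a kept direction says little. Most falls are small, and 4 arrays a group with 2 unlike pairs of saline hearts limit what can be told apart.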

Other observations

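The lists given next held no gene called at 8 h by limma. Of 29 matrix and protease genes, 20 were higher, against 6408 of all 12436 genes. None was called, and the median was 0.16. At an unadjusted p under 0.05, 5 matrix and protease genes were higher and 0 lower, against 5.93% higher and 6.42% lower of all genes. Timp1, an inhibitor of matrix proteases, changed by 0.81 ± 0.29 and Col1a1 by 0.71 ± 0.32. Of 22 cell cycle genes, 19 were higher, none was called, and the median was 0.13. For 5 of the 22 both group means lay below the background threshold. The list averaged 4.80 to 5.35 by KCN array, and of all genes at or below 5, 41.8% were lower in KCN hearts. The 17 lipogenic and sterol synthesis enzymes had a median of 0.20 with none called, and Scd1, the stearoyl-CoA desaturase, changed by 1.10 ± 0.58. The part of fat RNA in these values was not tested. The 18 core clock and clock output genes had a median of 0.02, with Arntl at -0.44 ± 0.43 and Dbp at 0.15 ± 0.53. Of the 14 cardiac stretch and stress genes none was called, and Nppb, the B-type natriuretic peptide, changed by 0.33 ± 0.24. Myh11, the smooth muscle myosin, changed by 1.04 ± 0.31 (adjusted p = 0.132, limma), with a median of 0.21 over the 5 measured smooth muscle and pericyte genes.

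Of the other pathway lists, ion channels and calcium handling had 1 of 26 genes called (Pln, lower) and a median of -0.02. The 19 genes of IL-6 signalling and the acute phase had a median of 0.10, with none called. At an unadjusted p under 0.05, 5 of them were higher and 0 lower, against 5.93% higher and 6.42% lower of all genes. Hp belongs to this list, and the part of fat RNA in it was not tested. Medians were -0.12 for 18 p53 and apoptosis genes, -0.05 for 21 genes of mitochondrial biogenesis and dynamics, -0.04 for 30 proteasome subunits, -0.04 for 16 interferon response genes, 0.06 for 21 oxidative stress targets of NRF2 and 0.11 for 10 adrenergic receptors and vasoactive peptides, none with a called gene. Among cell type lists, the median was 0.16 for 6 atrial, 0.08 for 7 fibroblast, 0.09 for 9 endothelial, 0.14 for 10 macrophage, 0.16 for 7 neutrophil and 0.26 for 6 platelet markers. It was -0.02 for 8 lymphocyte, 0.20 for 3 erythroid, -0.03 for 5 skeletal muscle and 0.01 for 4 thymocyte markers. For all 4 thymocyte, 5 of 8 lymphocyte and 4 of 7 neutrophil markers both group means at 8 h lay below the background threshold. These medians therefore say little about those cells. None of these markers was called.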
